A study of Homo sapiens with 6 samples.

Results

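The cadherins and protocadherins were taken as the protein-coding genes outside the sex chromosomes whose symbol is CDH followed by a number or begins with PCDH, and 73 of the 31831 genes in the count table met that rule. They comprised 14 classical cadherins, 5 other CDH genes, 10 nonclustered protocadherins and 44 clustered protocadherins. The libraries were made from polyadenylated RNA of HK-2 cells, an immortalised human line from the epithelium of the renal proximal tubule, kept in high glucose in both groups. In the HG-NC group the cells carried the empty control vector, a control plasmid in the labels, and in the HG-OE group they overexpressed hnRNP-F, both by lentivirus according to the study's methods. hnRNP-F belongs to the RNA-binding proteins called heterogeneous nuclear ribonucleoproteins. Each group held 3 libraries, which the study calls biological replicates. Its methods describe parallel wells for each group, and whether the libraries came from separate transductions is not stated. The study asked how gene expression changed with hnRNP-F in high glucose, in 1 cell line. Osmotic control cultures were not analysed here.

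Cadherins are calcium-dependent adhesion proteins of the cell membrane. Classical cadherins bind the same cadherin on the next cell and hold the actin skeleton through catenins at adherens junctions, and a tubular epithelium is known for carrying E-cadherin, N-cadherin and cadherin-6 in different segments. Protocadherins lack the catenin-binding tail, and the clustered ones, in the alpha, beta and gamma families, are best known from neurons, where each cell uses its own choice of promoters.

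Library totals ran from 25507595 to 29444841 counts, and a count of 0 allows up to 3 counts, or 0.102 to 0.118 CPM (counts per 1000000 counts of the library); such limits cover counting error only. HNRNPF itself, the gene that was overexpressed, was at 304, 319 and 311 CPM in the HG-NC libraries. In the HG-OE libraries it was at 430, 452 and 423 CPM (log2 fold change 0.48, SE 0.0388). The study's methods give the same gene ID for the constructs used in HK-2 and in mouse cells. Whether reads of the construct entered the count of the human gene was not tested. Of the proximal tubule markers, PAX8 was high in every library, while LRP2 and HNF4A had 0 counts in 5 libraries and 17 and 323 counts in HG-OE replicate 3. That library stood apart in other marker lists as well. The 6 squamous markers summed to 4.92 to 5.76 CPM in HG-NC, to 3.83 and 5.26 CPM in HG-OE replicates 1 and 2 and to 42.1 CPM in replicate 3, where KRT5, at 0 counts elsewhere, reached 334. The 6 hepatocyte markers summed to 265 to 276 CPM in HG-NC against 461, 463 and 634 CPM in HG-OE, a sum that was nearly all SERPINA1 (258 to 275 CPM in HG-NC against 457, 458 and 395 CPM in HG-OE) outside HG-OE replicate 3. ALB, APOA1, APOB and TTR had at most 1 count in HG-OE replicates 1 and 2, and ALB had 4359 counts in HG-OE replicate 3 and 78 in HG-NC replicate 3. Results that rest on HG-OE replicate 3 are given with and without it, and whether that library holds RNA of other cells was not tested. In bulk libraries, fewer cells of a type and less RNA per cell cannot be told apart.

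A few members carried most of the family's RNA. On the FPKM scale, which divides by gene length, CDH2 was the highest at 21.4 ± 0.594 FPKM (SD, n = 3) in HG-NC, followed by PCDHGA1 at 19.0 ± 0.49, CDH16 at 10.6 ± 0.349, PCDH1 at 6.42 ± 0.0208, CDH6 at 4.85 ± 0.0987, CDH24 at 4.01 ± 0.151 and PCDHGC3 at 3.47 ± 0.326. These 7 genes made up 96.0% ± 0.432 of the summed FPKM of all members in HG-NC and 94.5% ± 3.49 in HG-OE, where replicate 3 was the low one at 90.5%. The libraries of neighbours in this order did not overlap in HG-NC. In HG-OE those of PCDHGA1 and CDH16 did. The gamma genes share exons, so how far the PCDHGA1 value and share belong to that gene cannot be told, as described below. At the other end, 40 of the 73 members had fewer than 10 counts in every library, and 8 had at least 100 in every library.

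Within that sum the proportions differed between the groups. The share of PCDHGA1 was 25.7%, 26.4% and 26.3% in HG-NC and 20.4%, 21.0% and 19.2% in HG-OE, and that of PCDH1 went the other way, from 8.94%, 8.73% and 8.85% to 14.4%, 14.5% and 12.7%. CDH16 took 14.5% ± 0.461 in HG-NC and 17.5% ± 1.48 in HG-OE, and CDH2 29.5% ± 0.606 and 27.7% ± 0.0628. The shares of CDH24 (5.53% and 4.82%) and PCDHGC3 (4.77% and 3.61%) were lower in HG-OE as well. For all of these genes the groups did not overlap, with an exact two-sided permutation p = 0.1, the smallest that 3 libraries against 3 can give. Shares depend on the sum, which was 72.6 ± 0.965 FPKM in HG-NC and 91.1 ± 2.78 FPKM in HG-OE. The level of PCDHGA1 itself was alike in both groups (log2 -0.03), and that of CDH2 was higher in HG-OE (log2 0.25). The share of CDH6 was 6.69% ± 0.183 and 6.73% ± 0.287 (exact permutation p = 0.9).

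**Figure D1:**
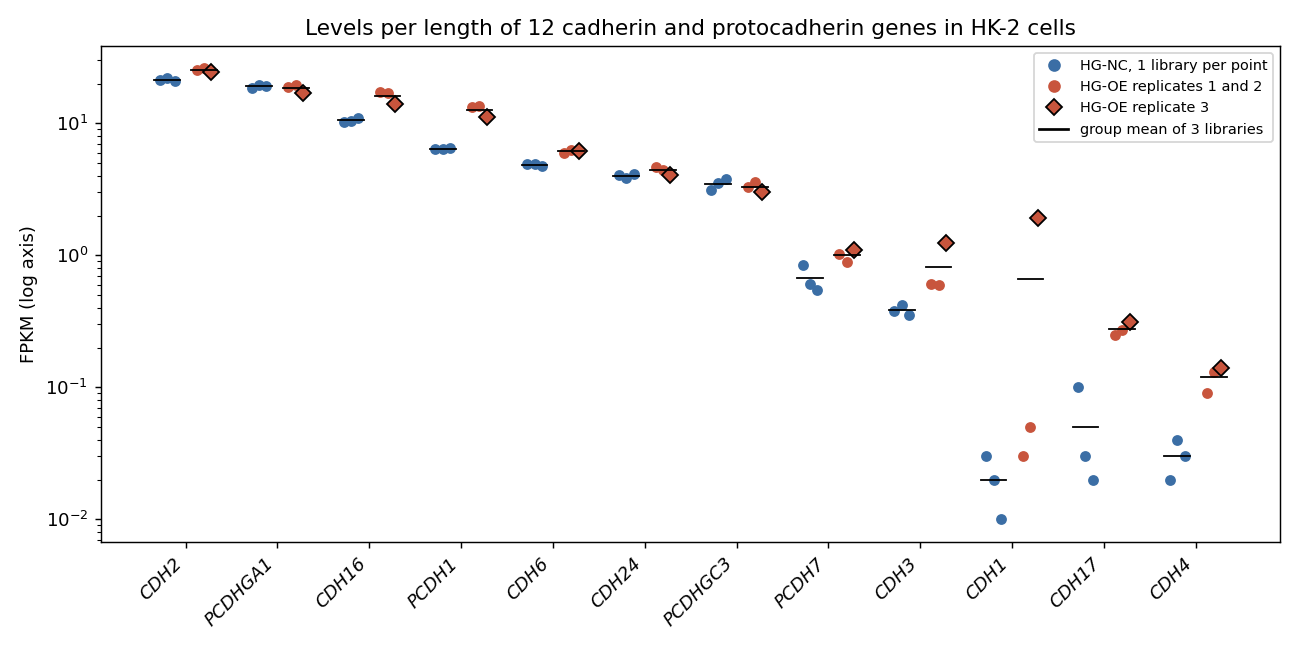
FPKM on a log axis for the 10 members with the highest mean FPKM and for CDH17 and CDH4, with each of the 6 libraries as a point (HG-OE replicate 3 as a diamond) and group means as bars. CDH2, PCDHGA1 and CDH16 lie above 10 FPKM in all libraries, and CDH1 lies at or under 0.05 FPKM in 5 libraries and at 1.91 FPKM in HG-OE replicate 3.

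The low-count filter of edgeR kept 19 of the 73 members, and these entered a test across 17142 genes. Of the 19, 8 were higher in HG-OE and 1 was lower at an adjusted p under 0.05 (edgeR quasi-likelihood test, Benjamini-Hochberg), or 42.1% and 5.26%. Of all genes tested, 25.9% were higher and 25.9% were lower, 51.8% together. At 2-fold as well, CDH3, CDH4 and CDH17 were called higher (15.8% of the 19, against 3.69% of all genes tested, or 5.82% in either direction). CDH4 and CDH17 passed the filter only through their HG-OE counts, so they could enter the test only by being higher. The 42.1%, the 15.8% and the non-overlap count and median of the 19 below include both, so they lean to higher. Called lower were 0 of the 19, against 2.13% of all genes; edgeR also gave 0 at an unadjusted p under 0.05 and 2-fold, and DESeq2 gave 0. The libraries of the groups did not overlap for 8 members that were higher and 1 that was lower, against 29.6% of all genes that were higher and 59.0% in either direction. The median log2 fold change of the 19 was 0.35, and that of all genes tested was 0.011. Without HG-OE replicate 3 the median was 0.12, and 9 were higher and 3 lower, where 26.7% and 27.2% of all genes were.

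**Figure D2:**
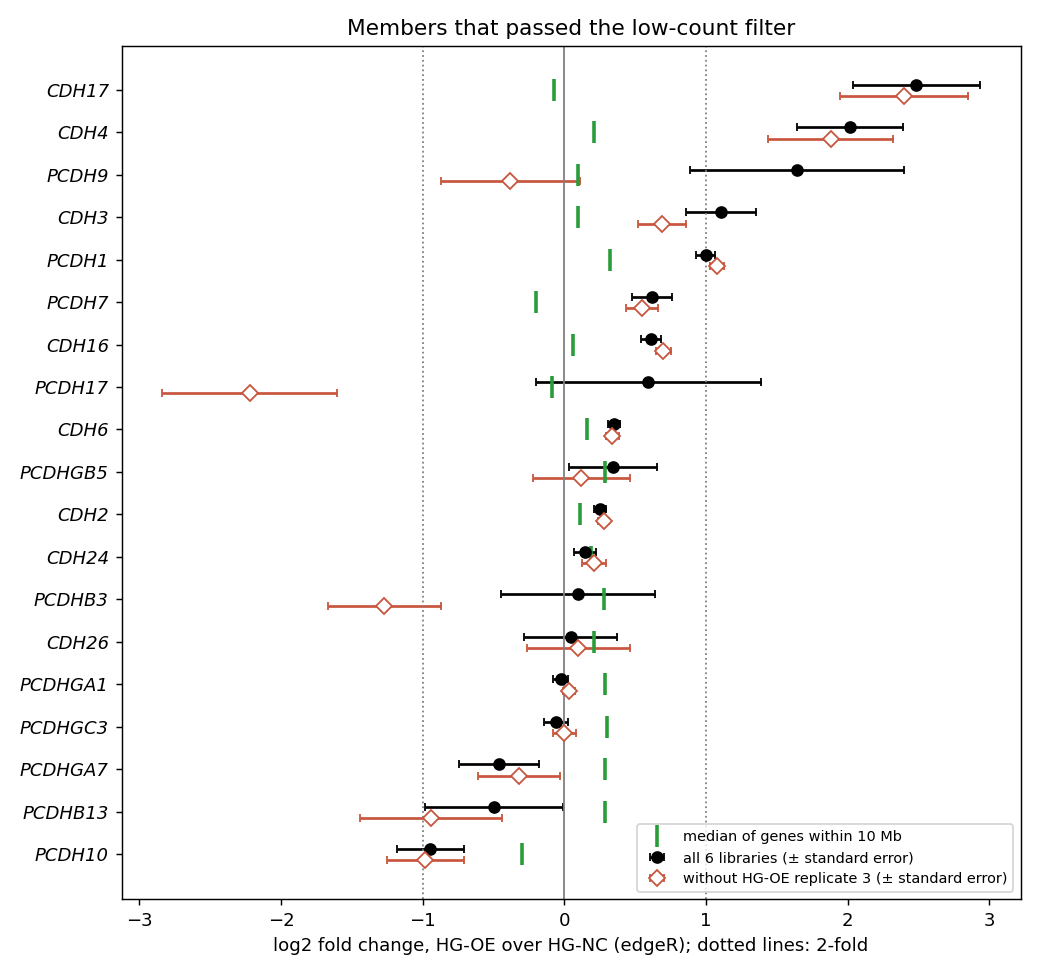
Log2 fold change of HG-OE over HG-NC with its standard error for the 19 members tested, with all 6 libraries (filled circles) and without HG-OE replicate 3 (open diamonds); green ticks give the median of the tested genes within 10 Mb of each, and dotted lines mark 2-fold. CDH17 and CDH4 stay beyond 2-fold in both fits, while PCDH9, PCDH17 and PCDHB3 move from above 0 to below it when that library is left out.

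Among the type I classical cadherins, the E-, N-, P- and R-cadherins and the cadherin of muscle, CDH2, CDH3 and CDH4 were higher in HG-OE. CDH2 (ENSG00000170558.10, chr18:27932879-28177946), which encodes N-cadherin, stood at 203, 212 and 201 CPM with the empty vector (HG-NC) and at 245, 253 and 236 CPM in HG-OE. All HG-OE libraries were above all HG-NC libraries, by a modest margin: the log2 fold change was 0.25 (SE 0.0408, adjusted p = 0.000144), and leaving out any 1 library kept it between 0.23 and 0.28.

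CDH3 (ENSG00000062038.15, chr16:68636189-68727468) encodes P-cadherin, found in basal layers of stratified epithelia. It had 70, 81 and 69 counts in HG-NC and 128, 128 and 260 in HG-OE. The groups did not overlap, and HG-OE replicate 3 was well above the other HG-OE libraries. The fold change was 2.15 (log2 1.11, SE 0.245, adjusted p = 0.00181), and without HG-OE replicate 3 the log2 value was 0.69 (SE 0.167, adjusted p = 0.000468), under 2-fold. The squamous markers given above were highest in the same library, and their part in the result was not tested.

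CDH4 (ENSG00000179242.16, chr20:61252261-61940617), or R-cadherin, first described in retina, was near the detection limit in HG-NC with 4, 8 and 8 counts. In HG-OE it had 21, 33 and 35 counts. No library of one group reached the other, with a fold change of 4.05 (log2 2.02, SE 0.375, adjusted p = 0.000482) and a log2 value of 1.88 without HG-OE replicate 3. Even so its HG-OE level was 0.12 ± 0.0265 FPKM, far under that of CDH2.

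CDH1 (ENSG00000039068.20, chr16:68737292-68835537), or E-cadherin, the defining cadherin of most epithelia and the gene next to CDH3 on chromosome 16, had 6, 4 and 2 counts in HG-NC and 5, 10 and 384 in HG-OE. It was near 0 in 5 libraries and stood among the 10 highest members by mean FPKM through HG-OE replicate 3 alone. CDH1 did not pass the low-count filter, and when no filter was applied it was called higher with a log2 value of 4.86 (SE 0.977, adjusted p = 0.000281) and with 384 of its counts in that library. The remaining type I gene, CDH15, M-cadherin, had at most 3 counts in a library.

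Of 9 type II classical cadherins, CDH6 and CDH24 were tested and CDH6 was higher. CDH6 (ENSG00000113361.13, chr5:31193686-31329146), the kidney cadherin of the developing proximal tubule, stood at 68.6, 68.3 and 65.6 CPM in HG-NC against 82.5, 88.7 and 87.0 CPM in HG-OE. The groups were well apart, with a log2 fold change of 0.35 (SE 0.045, adjusted p = 2.04e-05). CDH24 (ENSG00000139880.20, chr14:23047062-23057538) overlapped between the groups, at 17.1, 16.1 and 17.2 CPM against 19.8, 19.0 and 17.1 CPM, and its log2 value of 0.15 (SE 0.0787, adjusted p = 0.132) passed the test only without HG-OE replicate 3 (0.21, adjusted p = 0.028).

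The other 7 type II genes were near the detection limit in most libraries. CDH5, the cadherin of endothelium, had at most 3 counts in a library, and CDH11, a cadherin of mesenchyme, had 0 counts in 5 libraries and 14 in HG-OE replicate 3. Summed over all 14 classical cadherins the level was 293 ± 6.95 CPM in HG-NC against 362 ± 7.54 CPM in HG-OE, a log2 ratio of 0.30 (exact permutation p = 0.1, the smallest possible). Most of that sum was CDH2 and CDH6. The median log2 value of the 5 tested was 0.35, against 0.16 for the median of the genes around them.

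CDH16 (ENSG00000166589.13, chr16:66908122-66918917), or kidney-specific cadherin, which has a short tail without a catenin-binding site, was the highest of the 5 CDH genes outside the classical types. It had 41.5, 41.7 and 43.7 CPM in HG-NC against 68.8, 69.1 and 56.6 CPM in HG-OE. Every HG-OE library was higher, replicate 3 the least so, and the fold change was 1.53 (log2 0.61, SE 0.0706, adjusted p = 7.45e-06), or a log2 value of 0.70 without that replicate.

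CDH17 (ENSG00000079112.10, on chromosome 8) encodes the liver-intestine cadherin, of the same short-tailed kind as CDH16. Its counts were 11, 4 and 2 in HG-NC and 31, 35 and 40 in HG-OE, with no overlap and with the 3 HG-OE libraries close together. The fold change was 5.6 (log2 2.49, SE 0.446, adjusted p = 0.000365). On the log2 scale it was 3.42 without HG-NC replicate 1, the highest of its group, and 2.40 without HG-OE replicate 3. Of the hepatocyte markers, SERPINA1 and FGB were higher in all HG-OE libraries too. ALB, APOA1, APOB and TTR had at most 1 count in HG-OE replicates 1 and 2. The part of such cells in the CDH17 result was not tested.

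For the rest of these genes the counts were low. CDH26 had 17 to 27 counts in HG-NC and 18 to 31 in HG-OE (log2 0.05, SE 0.327, adjusted p = 0.917). CDH13, or T-cadherin, which is held to the membrane by a lipid anchor, had at most 7 counts in any library. CDH23, a cadherin of the hair cells of the inner ear, had at most 2 counts in 5 libraries and 33 in HG-OE replicate 3.

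Nonclustered protocadherins changed in both directions. PCDH1 (ENSG00000156453.14, chr5:141853090-141879246, minus strand), a delta-1 protocadherin known from airway epithelium, stood at 42.5, 42.5 and 42.4 CPM in HG-NC against 87.8, 91.4 and 75.1 CPM in HG-OE. The HG-NC libraries were nearly equal, and each HG-OE library was far above them. Its log2 fold change of 0.997 (SE 0.0652, adjusted p = 4.85e-08) fell just under the 2-fold limit, and it was 1.08 without HG-OE replicate 3, the lowest of the 3. Tested genes within 10 Mb of PCDH1 had a median log2 value of 0.32.

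PCDH7 (ENSG00000169851.15, chr4:30720369-31146805), also of the delta-1 kind, had 292, 227 and 208 counts in HG-NC and 411, 359 and 448 in HG-OE. On the CPM scale the groups did not overlap, at 7.44 to 11.5 CPM against 12.3 to 15.3 CPM, and the log2 value was 0.62 (SE 0.14, adjusted p = 0.00216) where the genes around it had a median of -0.20. PCDH10 (ENSG00000138650.9, chr4:133149294-133208606), a delta-2 protocadherin on the same chromosome, was the member that was lower. Its counts were 58, 41 and 57 in HG-NC and 28, 29 and 31 in HG-OE, so the highest HG-OE library was under the lowest HG-NC library. It was 1.93-fold lower (log2 -0.95, SE 0.236, adjusted p = 0.0042), with -0.98 when HG-OE replicate 3 was left out. The genes around PCDH10 had a median of -0.30. With limma and an FPKM filter PCDH10 did not pass on log2(FPKM + 1) (adjusted p = 0.14) or log2(FPKM + 0.1) (adjusted p = 0.138). It passed on log2(FPKM + 1) with no FPKM filter (limma, adjusted p = 0.047).

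PCDH9 and PCDH17 depended on 1 library. PCDH17 had 13, 13 and 14 counts in HG-NC, 3 and 3 in HG-OE replicates 1 and 2, and 60 in replicate 3. With all libraries its log2 value was 0.59 (SE 0.795, adjusted p = 0.56), and without HG-OE replicate 3 it was -2.22 (SE 0.617, adjusted p = 0.00199). PCDH9 had 11, 18 and 9 counts against 7, 14 and 109, with log2 values of 1.64 (SE 0.756, adjusted p = 0.0855) and, without that library, -0.38 (adjusted p = 0.532). The other 5 nonclustered genes did not pass the filter. Summed, the 10 nonclustered protocadherins were at 54.7 ± 2.35 CPM in HG-NC against 102 ± 4.15 CPM in HG-OE (log2 ratio 0.90, exact permutation p = 0.1, the smallest possible), a sum made up mainly of PCDH1.

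The clustered protocadherins lie in a row on chromosome 5, in an alpha family spanning 226 kb, a beta family of 198 kb and a gamma family of 182 kb, and PCDH1 lies beyond the gamma family on the opposite strand. Each alpha and gamma gene has a variable first exon with its own promoter, spliced to constant exons shared by the family, while beta genes are single exons that resemble one another closely. The counts analysed here held 7 of the 15 annotated alpha genes, 15 of the 16 beta genes and all 22 gamma genes. Summed over the 44 genes the level was 156, 166 and 164 CPM in HG-NC against 157, 168 and 154 CPM in HG-OE, with the libraries interleaved (log2 ratio -0.02, exact permutation p = 0.9). Of the 44, 6 were tested, and edgeR called 0 at an adjusted p under 0.05 and 0 at an unadjusted p under 0.05. The limma test on FPKM also gave 0. DESeq2, fitted to all genes with its default screening of low counts and outliers, gave 1, PCDHB2. PCDHB2 had 5, 4 and 8 counts in HG-NC and 7, 21 and 40 in HG-OE. The median log2 value of the 6 was -0.04, and tested genes within 10 Mb had a median of 0.29.

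PCDHGA1 (ENSG00000204956.6, chr5:141330514-141512975) held 82.6% to 85.8% of the gamma counts in each library and PCDHGC3 (ENSG00000240184.7, chr5:141475947-141512977) held 12.5% to 14.1%. PCDHGA1 had 3309, 3697 and 3751 counts in HG-NC and 3837, 4100 and 3536 in HG-OE, which is 134 ± 3.26 CPM and 131 ± 10.1 CPM. The groups overlapped, with a log2 value of -0.03 (SE 0.0519, adjusted p = 0.699). For PCDHGC3, the C-type isoform known for broad expression outside neurons, the levels were 21.0 ± 1.91 CPM and 20.2 ± 1.86 CPM (log2 -0.06, SE 0.0865, adjusted p = 0.594).

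How far the PCDHGA1 value belongs to that isoform cannot be told apart from the rest of its family. In GENCODE 44, all 22 gamma gene models share 2177 exon bases, against 6303 exon bases in the whole PCDHGA1 model, and PCDHGA1 is the first gene of the row. The 15 alpha models share 2869 exon bases and the beta models share 0. PCDHA1, the first alpha gene, had 10 of 15, 2 of 4 and 8 of 8 alpha counts in HG-NC and 1 of 2, 1 of 3 and 6 of 16 in HG-OE, too few to compare its share with that of PCDHGA1. How reads in shared exons were assigned to a gene is not given in the sources used here.

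Promoter windows of RefSeq (GRCh38.p14, 250 bases before to 50 after the start) were found for 57 of the 73 members, 40 of them clustered. Those shown are the windows of PCDHGA1 and PCDHGC3, which carried nearly all counts of the cluster, of PCDHB3 and PCDHB13, the beta genes that were tested, and of PCDH1, whose level differed between the groups. In the first 4, capitals mark CGCT, the core of the conserved element of clustered protocadherin promoters, or its reverse complement AGCG. In PCDH1, capitals mark CAGGTG, the reverse complement of the E-box CACCTG, which Snail and ZEB factors are known to bind. The PCDH1 window belongs to a start inside the gene model given above, not to its outermost 5′ end. All are written 5′ to 3′ on the strand of the gene.
PCDHGA1, chr5:141330264-141330563, plus strand: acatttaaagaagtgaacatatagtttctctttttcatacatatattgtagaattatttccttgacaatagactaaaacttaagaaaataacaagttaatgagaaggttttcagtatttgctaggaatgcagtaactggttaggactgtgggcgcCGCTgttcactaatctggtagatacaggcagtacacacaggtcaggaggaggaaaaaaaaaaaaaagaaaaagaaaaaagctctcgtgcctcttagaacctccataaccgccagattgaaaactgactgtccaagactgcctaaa
PCDHGC3, chr5:141475716-141476015, plus strand: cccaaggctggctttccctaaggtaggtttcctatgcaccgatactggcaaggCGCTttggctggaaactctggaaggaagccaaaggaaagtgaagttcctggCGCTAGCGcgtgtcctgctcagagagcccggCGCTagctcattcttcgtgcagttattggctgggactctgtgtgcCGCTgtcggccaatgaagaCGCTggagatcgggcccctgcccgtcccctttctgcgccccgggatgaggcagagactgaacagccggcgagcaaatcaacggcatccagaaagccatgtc
PCDHB3, chr5:141100223-141100522, plus strand: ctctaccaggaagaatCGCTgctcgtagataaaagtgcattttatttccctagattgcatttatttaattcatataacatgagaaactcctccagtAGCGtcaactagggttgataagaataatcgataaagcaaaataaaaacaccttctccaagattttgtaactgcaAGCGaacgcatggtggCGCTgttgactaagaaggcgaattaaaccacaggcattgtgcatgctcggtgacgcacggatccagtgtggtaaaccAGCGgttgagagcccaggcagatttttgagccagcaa
PCDHB13, chr5:141213669-141213968, plus strand: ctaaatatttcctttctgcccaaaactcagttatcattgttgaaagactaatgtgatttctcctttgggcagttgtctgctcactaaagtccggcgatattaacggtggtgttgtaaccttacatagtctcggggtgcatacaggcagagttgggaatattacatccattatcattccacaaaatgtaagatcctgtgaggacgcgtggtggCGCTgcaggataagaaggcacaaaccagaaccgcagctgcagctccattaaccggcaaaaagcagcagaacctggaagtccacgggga
PCDH1, chr5:141869578-141869877, minus strand: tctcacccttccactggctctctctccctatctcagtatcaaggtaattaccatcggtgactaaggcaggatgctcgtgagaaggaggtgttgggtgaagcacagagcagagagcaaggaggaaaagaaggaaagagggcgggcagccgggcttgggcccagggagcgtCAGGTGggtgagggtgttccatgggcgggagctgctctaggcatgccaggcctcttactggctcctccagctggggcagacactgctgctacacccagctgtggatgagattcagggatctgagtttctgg

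PCDHGA1 held 1 such CGCT in a window with 36.3% G and C, while PCDHGC3 held 5 and 1 reverse complement, 59.0% G and C and 18 CpG dinucleotides against 4. The beta windows held 43.0% and 46.3% G and C. Over both strands, CGCT was present for 39 of the 40 clustered genes (97.5%) and for 71.9% of the 27305 genes with a window, which is 70.0% of 35116 windows of the same length. The longer word TGGCGCT, which contains CGCT and was chosen after the words shared by these windows had been seen, was present for 16 of the 40 clustered genes, 2 of the 17 other members and 4.92% of all genes (4.08% of windows). CACCTG was present for 3 of the 40 clustered genes, 4 of the 17 others and 24.1% of all genes (20.6% of windows). These matches describe the letters in the windows.

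Beneath PCDHGA1 and PCDHGC3, the cluster was sparse. The other gamma genes together had 66, 107 and 121 counts in HG-NC and 88, 85 and 206 in HG-OE. The beta genes had 85, 91 and 61 counts and then 57, 57 and 227, and the alpha genes 15, 4 and 8 and then 2, 3 and 16. For the beta and the other gamma genes HG-OE replicate 3 was the highest library, and HG-OE replicates 1 and 2 were within or below the range of HG-NC. For the alpha genes HG-OE replicate 3 was close to HG-NC replicate 1. Without PCDHGA1 and PCDHGC3 the cluster summed to 6.93 ± 0.481 CPM in HG-NC against 8.46 ± 5.95 CPM in HG-OE, where replicate 3 alone was at 15.3 CPM.

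PCDHB3 showed this pattern most clearly among the tested beta genes, with 28, 28 and 21 counts in HG-NC and 12, 11 and 67 in HG-OE. Its log2 value was 0.10 (SE 0.541, adjusted p = 0.893) with all libraries and -1.27 (SE 0.4, adjusted p = 0.00631) without HG-OE replicate 3. PCDHB13 had 17, 23 and 8 counts against 13, 5 and 19 (adjusted p = 0.417), PCDHGA7 had 24, 45 and 47 against 35, 32 and 24 (adjusted p = 0.194), and PCDHGB5 had 14, 29 and 26 against 28, 26 and 41 (adjusted p = 0.379). All 3 overlapped between the groups. Since beta genes resemble each other closely, reads that fit more than 1 of them may be lost or misplaced, and their single values are uncertain.

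Across the family HG-OE replicate 3 had the highest CPM for 39 of the 73 members, and for 22.2% of all genes in the table; among the 54 members under the low-count filter it did so for 31, against 24.7% of all such genes. It had a count for 63 members, against 46 to 56 in the other libraries, and for 26423 of all genes, against 24342 to 25012. Of the 36 members with at least 10 counts over HG-OE, 10 had at least 80% of them in that library, as did 2.92% of all genes with as many counts. These were CDH1, CDH11, CDH23, PCDH9, PCDH17, PCDHB5, PCDHB11, PCDHGA2, PCDHGA6 and PCDHGA10. PCDHB5 went from at most 2 counts elsewhere to 21, PCDHGA2 from at most 4 to 15, and PCDHGA10 from at most 7 to 16. The 54 members under the filter summed to 113, 90 and 110 counts in HG-NC and to 71, 92 and 749 in HG-OE, 384 of the last being CDH1. With no low-count filter, edgeR called 8 of the 73 members higher at 2-fold (CDH1, CDH3, CDH4, CDH11, CDH17, CDH23, PCDH9 and PCDHB2), against 3.47% of all genes, and 0 lower, against 1.37%. DESeq2, with its default screening of low counts and outliers, gave 0 lower as well. The summed squamous and hepatocyte markers, LRP2 and HNF4A were highest in the same library, where mesenchymal markers were at 41.5 CPM against 31.8 to 39.0 CPM elsewhere. Endothelial markers, at 1.13 CPM, and blood markers, at 2.94 CPM, were within the range of the other libraries, and neuronal markers, at 19.1 CPM, were not above it. The epithelial markers KRT8, KRT18, KRT19 and EPCAM were higher in HG-OE replicate 3 than in the other HG-OE libraries. KRT8 was at 983 CPM against 293 to 653 CPM elsewhere, and KRT18 at 488 CPM against 205 to 282 CPM. KRT19, at 191 CPM against 138 and 147 CPM in the other HG-OE libraries, was under its HG-NC libraries. So was EPCAM, at 79.2 CPM against 69.7 and 67.0 CPM. Over the groups KRT19 and EPCAM were lower in HG-OE (log2 -0.55 and -0.56, or -0.70 and -0.63 without HG-OE replicate 3). KRT8 and KRT18 were higher (log2 1.35 and 0.76, or 1.11 and 0.44 without HG-OE replicate 3). The part of any of these cells in the result was not tested.

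**Figure D3:**
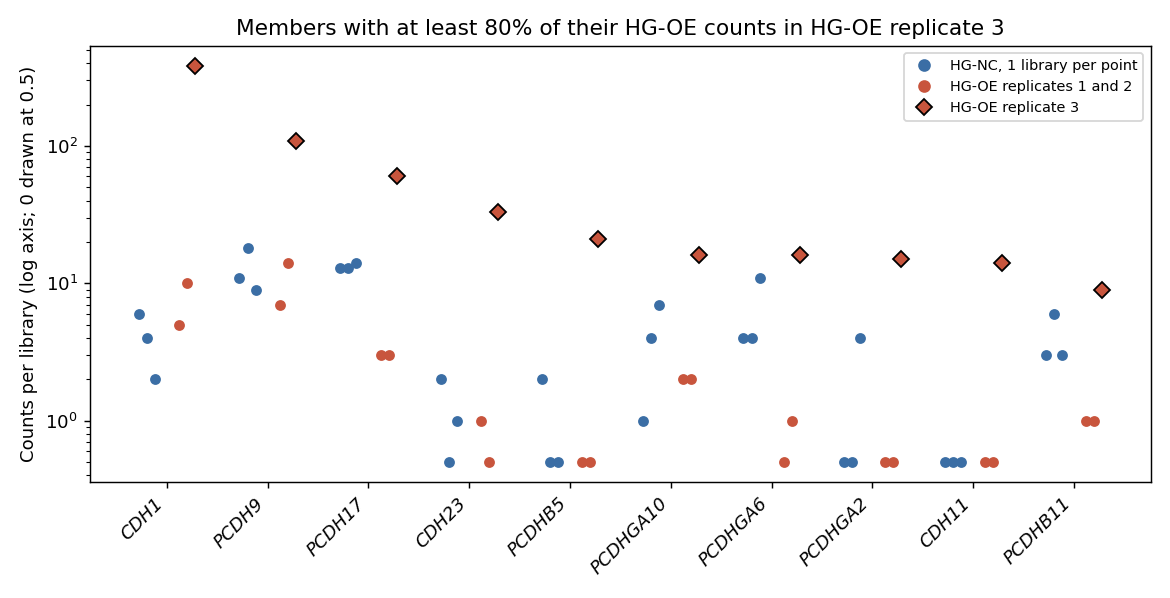
Counts per library on a log axis (0 drawn at 0.5) for the 10 members with at least 80% of their HG-OE counts in HG-OE replicate 3 (diamonds); circles are the other 5 libraries. CDH1 reaches 384 counts in that library and at most 10 in the others, and HG-OE replicates 1 and 2 lie near HG-NC or below it.

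Leaving HG-OE replicate 3 out changed which members were called at 2-fold. CDH17, CDH4 and PCDH1 were then called higher and PCDH17 and PCDHB3 lower, against 3.6% and 2.63% of all genes tested, 6.24% together. The 9 members at an adjusted p under 0.05 with all libraries passed in the same direction without it, and CDH24 (higher), PCDH17 and PCDHB3 (both lower) were added.

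The catenins and other partners of the cadherin tail, from a list of 15 genes of which 11 were tested, had 6 members higher and 2 lower, with a median log2 value of 0.31. For this and the lists that follow, the share of all genes tested that passed was 25.9% in each direction, 51.8% together, and 5.82% at 2-fold. CTNNA1, the link to actin, was at 0.31 (SE 0.0351, adjusted p = 6.6e-06), where genes within 10 Mb had a median of 0.27. CTNNB1, beta-catenin, was at 0.44 (SE 0.0419, adjusted p = 1.36e-06), where genes within 10 Mb of CTNNB1 had a median of 0.56. CTNND1, the catenin that keeps classical cadherins at the membrane, had 188, 180 and 172 counts in HG-NC and 384, 345 and 436 in HG-OE. It was well separated between the groups, with a log2 value of 0.99 (SE 0.113, adjusted p = 7.13e-06). JUP, or plakoglobin, was at 0.11 (SE 0.0519, adjusted p = 0.0984), and passed without HG-OE replicate 3 (0.14, adjusted p = 0.00473). PKP3, a plakophilin of desmosomes, was called at 2-fold (log2 1.60, SE 0.484, adjusted p = 0.0131) through 760 counts in HG-OE replicate 3, against 88, 112 and 124 in HG-NC and 165 and 144 in the other HG-OE libraries. Its log2 value was 0.40 without that library, and the call was lost, at a like log2 value, without HG-NC replicate 1 (1.51, adjusted p = 0.0762), without HG-NC replicate 2 (1.63, adjusted p = 0.0592) and with DESeq2 (1.60, adjusted p = 0.0902).

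Of 18 further genes of the cadherin superfamily 12 were tested, 6 were higher, 2 were lower and 3 were called at 2-fold. CLSTN2, a calsyntenin of synapses, had 369, 349 and 337 counts in HG-NC and 2764, 2796 and 2519 in HG-OE (log2 2.81, SE 0.0709, adjusted p = 1.17e-11). CELSR1 and CELSR3, cadherins of planar cell polarity, were at 1.06 (SE 0.0472, adjusted p = 1.45e-09) and 1.20 (SE 0.0914, adjusted p = 1.78e-07). Genes within 10 Mb of CLSTN2, CELSR1 and CELSR3 had medians of -0.18, 0.31 and 0.55. Desmosomal cadherins gave 0 of 3 tested at an adjusted p under 0.05 in edgeR, with 1 at an unadjusted p under 0.05, and 0 by DESeq2 and by limma on FPKM. Without HG-OE replicate 3, DSC2 passed as lower (log2 -0.22, edgeR, adjusted p = 0.0327). Among 3 nectins tested, 1 was lower (NECTIN3).

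Transcription factors and splicing regulators (ESRP1 and ESRP2) tied to the switch between E- and N-cadherin had 1 of 10 tested genes higher (SNAI1) and 3 lower (KLF4, SNAI2 and ZEB2). These genes passed in the same direction without HG-OE replicate 3. ESRP1, with 178 counts in that library against 9 and 16 in the other HG-OE libraries, went from 1.01 (adjusted p = 0.287) to -1.41 (adjusted p = 0.00228). GRHL1 (-0.82, adjusted p = 0.00684), OVOL2 (-0.88, adjusted p = 0.0205) and ESRP2 (-0.31, adjusted p = 0.00086) then passed as lower too. SNAI2 was at -0.28 (SE 0.0581, adjusted p = 0.00107) and ZEB1 at -0.17 (SE 0.0795, adjusted p = 0.0894). ZEB2 had 1026, 1108 and 1050 counts in HG-NC and 609, 591 and 566 in HG-OE, with no overlap (log2 -0.97, SE 0.0605, adjusted p = 2.95e-08). Genes within 10 Mb of ZEB2 had a median of -0.34. GRHL2, a factor that keeps CDH1 active in epithelia, had 0 counts in 5 libraries and 13 in HG-OE replicate 3, the library with CDH1.

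Regulators of protocadherin promoter choice had 1 of 15 tested genes higher (DNMT3B) and 5 lower (DNMT1, DNMT3A, RAD21, SMC3 and WAPL), with a median log2 value of -0.09. DNMT3B overlapped between the groups (adjusted p = 0.0492) and did not pass with no low-count filter (adjusted p = 0.0887) or with DESeq2. Without HG-OE replicate 3 DNMT3B was at 0.19 (adjusted p = 0.00131), and MAU2 passed as lower (-0.20, adjusted p = 0.0146). CTCF, which loops enhancers to the chosen promoters, was at -0.01 (SE 0.0555, adjusted p = 0.928), and SMCHD1, a silencer of the cluster, at 0.05 (SE 0.0804, adjusted p = 0.605). Of the 8 tested proteases that shed or cleave cadherins, 3 were higher (MMP7, MMP9 and NCSTN) and 2 were lower (ADAM10 and ADAM17), and the median was 0.04. ADAM15 also passed as higher without HG-OE replicate 3 (log2 0.11, adjusted p = 0.049).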

How the data were processed

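Polyadenylated RNA was sequenced with a directional kit. Per the study's methods, trimmed reads were placed on GRCh38 by HISAT2. The authors deposited unnormalized gene counts of uniquely placed reads, and FPKM values rounded by the authors. The counter, its strand setting and the annotation release are not given in the sources used here. ComBat_seq is named for batch correction, and whether it entered the deposited counts is not stated.

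Control columns were assigned through the group name in the design text. Counts were tested with edgeR 4.0.16 (R 4.3.3) with TMM scaling, the default low-count filter and a quasi-likelihood test of HG-OE against HG-NC, with no covariate and with Benjamini-Hochberg adjustment over 17142 genes. A call is an adjusted p under 0.05, with 2-fold where stated. FPKM values were tested with limma 3.58.1 on log2(FPKM + 1) and log2(FPKM + 0.1), and DESeq2 1.42.0 was an alternative. DESeq2 was run with its default screening, which can leave genes with low counts or an outlying library without an adjusted p. The scripts were tested on simulated counts. Gene positions come from GENCODE 44, and neighbours are tested genes within 10 Mb. Replicate numbers did not pair the libraries.

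Members, gene lists and tests were chosen with earlier results of these data known. Named members were those called at 2-fold, the 10 with the highest mean FPKM, and CDH1, CDH2, CDH6, CDH11, CDH13 and CDH16; from other lists, those called and CTNNA1, CTNNB1, CTNND1, JUP, SNAI2, ZEB1, GRHL2, CTCF and SMCHD1. Other genes were named after their values were seen. With 3 libraries a group, p-values measure the spread between these libraries.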

Additional observations from a re-analysis of the deposited data

How the results depend on the processing

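Of 457 values of 31 genes under alternative settings, 418 kept their direction and their side of an adjusted p of 0.05, whatever their fold change. Of the rest, 11 no longer passed, 5 newly passed and 23 changed sign. Removing the neighbours' median shifted only the log2 value and kept the adjusted p, so that setting could not change whether a gene passed. The members called at 2-fold, 3 as reported, numbered 8 with no low-count filter, 6 with a mean of at least 10 counts, 0 with limma on log2(FPKM + 1), with or without an FPKM filter, 1 on log2(FPKM + 0.1) and 3 to 5 as single libraries were left out, with PCDH9 and PCDHB2 added without HG-OE replicate 1. On log2(FPKM + 1) a pseudocount of 1 exceeds the group means of CDH3, CDH4 and CDH17, and limma there put 6 members at an adjusted p under 0.05, against 9 as reported, 14 with no low-count filter and 9 to 12 with a library left out. DESeq2 called 4. With the replicate number as a block the 3 calls at 2-fold and the 9 at an adjusted p under 0.05 stayed in number. Deviations of same-numbered libraries from their group means, in log2 CPM, correlated at -0.027, 0.03 and -0.001.

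The median log2 value of the clustered protocadherins, -0.04 as reported, was 0.27 with no filter, 0.04 with a mean of at least 10 counts, -0.13 with the replicate block, 0.30 with DESeq2, -0.34 with the neighbours' median removed and -0.16 to 0.30 with a library left out, over 6 to 44 genes. Their summed level, a log2 ratio of -0.02, was 0.29 without PCDHGA1 and PCDHGC3, an alternative chosen after seeing the data. The median of the classical cadherins, 0.35, was 0.29 with no filter, 0.73 with a mean of at least 10 counts, 0.28 and, with no FPKM filter, 0.01 on log2(FPKM + 1), and 0.19 with the neighbours' median removed.

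Without HG-OE replicate 3 the sign changed for PCDH9 (-0.38), PCDH17 (-2.22), PCDHB3 (-1.27), PCDHGA1 (0.03), PCDHGC3 (0.00), CTCF (0.03) and SMCHD1 (-0.02). Without HG-NC replicate 3 it changed for CDH26 (-0.11), PCDHB3 (-0.05), PCDHGC3 (0.00) and CTCF (0.03), without HG-NC replicate 2 for CDH26 (-0.03) and CTCF (0.00), and without HG-OE replicate 1 for CDH26 (-0.20). With the neighbours' median removed CDH24 (-0.04), CDH26 (-0.17), PCDHB3 (-0.18), CTNNB1 (-0.12) and SMCHD1 (-0.14) changed sign. As single libraries were left out, values ran up to 2.14 for PCDH9, 1.11 for PCDH17, 0.31 for CDH26, 0.49 for PCDHB3 and 0.15 for SMCHD1, and down to -0.08 for PCDHGA1. PCDHB3 was at -0.20 with the replicate block, -0.01 on log2(FPKM + 1) with or without the filter and -0.20 on log2(FPKM + 0.1). The cause of these changes was not tested. Depth limits the 40 members with fewer than 10 counts in every library.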
